A study of Mus musculus with 6 samples.

Results

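Accessible chromatin was examined at 10 genes that receive and restrain fibroblast growth factor (FGF) signals: the receptors Fgfr1, Fgfr2 and Fgfr3, the Sprouty inhibitors Spry1, Spry2 and Spry4, the ETS transcription factors Etv1, Etv4 and Etv5, and the phosphatase Dusp6. An interval of the ATAC-seq count table (mm10) was a member if its midpoint lay inside the body of 1 of these protein-coding genes, or if the nearest protein-coding gene end within 300 kb was that of 1 of them. By this rule 69 of 52223 intervals were members. ATAC-seq counts DNA fragments released where the transposase Tn5 reaches the DNA, so a higher count at an interval means more open chromatin there.

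The cells were mouse neural progenitors differentiated from embryonic stem cells, in 2 groups of 3 libraries. The control group, mScarlet, was transduced with a lentivirus for the fluorescent protein mScarlet3. The Nr6a1OE group received a lentivirus for Nr6a1-2A-mScarlet3, which encodes the orphan nuclear receptor Nr6a1 together with the same marker. Both groups began in medium with 10 ng/ml bFGF, were given 5 µM of the GSK3 inhibitor CHIR99021 on day 2, and from day 3 were grown in 100 nM RA (retinoic acid) and 10 nM SAG (Smoothened Agonist). From day 5, the day of transduction, the medium held 10 nM SAG. Fluorescent cells were sorted on day 9, 4 days after transduction, and 50000 cells entered each library. The labels name no stem cell line. The virus carried Nr6a1 in addition to the endogenous gene, and ATAC-seq does not measure the level of Nr6a1 from either. The comparison asks how raised Nr6a1 alters chromatin in these progenitors.

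FGF ligands bind receptor tyrosine kinases encoded by the Fgfr genes, which signal through RAS and the ERK kinases. ERK activity induces ETS factors of the Etv1/Etv4/Etv5 family and also induces its own brakes, the Sprouty proteins, which act on the pathway above ERK, and Dusp6, a phosphatase that inactivates ERK itself. In the early spinal cord FGF signalling keeps posterior progenitors undifferentiated, and retinoic acid opposes it.

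The gene starts are shown first, because most of the strongest member intervals lie at gene ends. RefSeq (GRCm38.p6, whose coordinates are those of mm10) gave 10 start windows for 7 of the 10 genes: Fgfr2, Fgfr3, Spry1, Spry2, Etv1, Etv5 and Dusp6. Fgfr1, Spry4 and Etv4 had no window there. Below are the 250 bases before the start on the gene's own strand for 4 genes that differ in base composition, with CpG dinucleotides in capitals. They are Fgfr2 (chr7:130266809-130267058, minus strand), Spry2 (chr14:105896820-105897069, minus), Etv5 (chr16:22439571-22439820, minus) and Dusp6 (chr10:99262981-99263230, plus).
Fgfr2: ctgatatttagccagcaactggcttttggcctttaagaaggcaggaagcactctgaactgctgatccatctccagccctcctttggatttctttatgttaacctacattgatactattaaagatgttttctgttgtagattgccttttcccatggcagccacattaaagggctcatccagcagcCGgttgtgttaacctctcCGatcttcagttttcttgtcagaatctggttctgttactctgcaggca
Spry2: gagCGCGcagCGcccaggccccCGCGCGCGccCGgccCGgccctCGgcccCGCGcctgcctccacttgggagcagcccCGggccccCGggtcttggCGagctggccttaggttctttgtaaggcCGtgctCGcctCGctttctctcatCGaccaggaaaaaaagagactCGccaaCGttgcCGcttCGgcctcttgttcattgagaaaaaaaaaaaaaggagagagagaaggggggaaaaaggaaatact
Etv5: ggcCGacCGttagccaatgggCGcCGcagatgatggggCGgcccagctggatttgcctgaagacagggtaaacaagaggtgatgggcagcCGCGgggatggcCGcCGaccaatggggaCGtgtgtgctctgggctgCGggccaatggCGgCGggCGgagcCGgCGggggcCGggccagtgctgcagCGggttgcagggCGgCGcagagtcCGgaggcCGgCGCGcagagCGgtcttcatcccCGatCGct
Dusp6: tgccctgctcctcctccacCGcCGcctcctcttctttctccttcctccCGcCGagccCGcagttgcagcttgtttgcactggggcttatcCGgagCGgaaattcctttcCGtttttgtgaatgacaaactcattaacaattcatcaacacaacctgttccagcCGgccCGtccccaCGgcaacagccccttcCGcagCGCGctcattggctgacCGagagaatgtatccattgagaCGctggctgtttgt

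The Fgfr2 window held 2 CpG and 44.0% G and C, against 23 CpG and 62.4% for Spry2, 27 and 71.2% for Etv5, and 16 and 56.4% for Dusp6. The median over 32851 RefSeq windows of the same length was 6 CpG and 52.4%. All 250 bases of the Spry2, Etv5 and Dusp6 windows lay inside an interval, whereas the Fgfr2 window had 0 bases in one, the accessible interval there ending just inside the gene. The nonamer TCAAGGTCA (TGACCTTGA on the other strand), an extended half-site known for Nr6a1, occurred in 0.387% of all windows. The ETS motif CCGGAAGT (ACTTCCGG), which shares no overlap with it, occurred in 2.88%. Neither was found in any of the 10 member windows, searched on both strands, which says only that these letters are not in those 250 bases.

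The libraries held 6857763 to 8030029 fragments in intervals. Over all 51637 intervals tested with edgeR's quasi-likelihood test, 242 were higher in Nr6a1OE at a Benjamini-Hochberg adjusted p under 0.05 (opened) and 652 were lower (closed), with a median log2 ratio (Nr6a1OE over mScarlet) of 0.0038. Defining genes of neural progenitors had an interval within 1 kb of a gene end in 8 of 8 cases, and neuron genes in 6 of 6. Of the 4 pluripotency genes, Nanog alone had one, at 2.71 CPM (counts scaled to the library total) in mScarlet and 3.38 in Nr6a1OE, and Pou5f1, Zfp42 and Dppa4 had none. Summed progenitor marker accessibility was 660 CPM in mScarlet and 663 in Nr6a1OE. Paraxial mesoderm, endoderm and neural crest genes each had an interval in 3 of 4 cases, and glia and endothelium or blood genes in 2 of 4. In such bulk libraries a change inside cells and a change in the mix of cells cannot be told apart.

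Few differences between the groups were detected at these FGF genes: 64 of 66 tested member intervals did not pass the threshold, and both that did lie nearest to Dusp6. At Dusp6, 1 distal interval opened and another, farther out, closed, while the interval over the gene start held about 120 CPM in each group. Of 69 member intervals, 3 were too low to test, 1 each at Fgfr1, Fgfr2 and Etv5. The 1 opened and 1 closed interval stand against background shares of 0.469% and 1.26% of all tested intervals, and together make 3.03% of tested members against 1.73%. From 2 calls no difference between these shares can be read.

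At an unadjusted p under 0.05, 7 were higher (background 5.73%) and 4 lower (6.87%). The groups did not overlap at 11 members, 7 higher (7.89%) and 4 lower (8.73%), or 16.7% of tested members against 16.6% of all intervals. The median log2 ratio was 0.038 over members, 40 of them above 0 and 26 below, against 0.0038 over all intervals. Of all 51637 tested intervals, 26222 were above 0 and 25415 below. The member median ran from 0.022 without mScarlet 2 to 0.080 without mScarlet 3. Receptor intervals had a median of 0.079 (31 tested), Sprouty intervals 0.049 (14), ETS factor intervals -0.013 (12) and Dusp6 intervals -0.12 (9). These role medians were read as descriptions and were not tested.

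**Figure D1:**
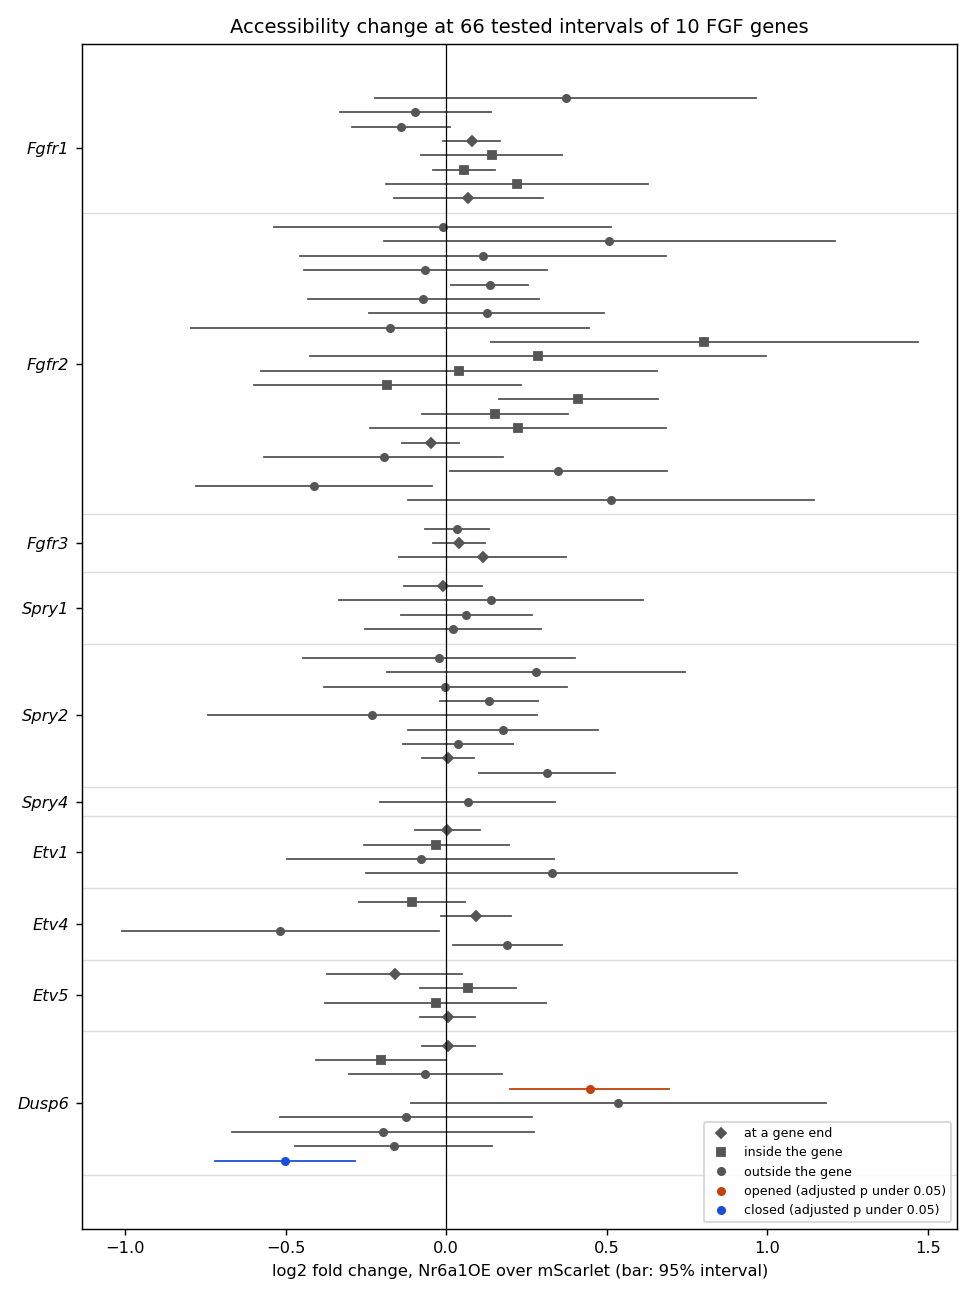
Log2 ratio (x axis, Nr6a1OE over mScarlet) with its 95% interval for the 66 tested member intervals, in genome order within each gene; marker shapes give position and colour marks the calls. Only 2 Dusp6 intervals are coloured, 1 at 0.45 and 1 at -0.50, and the widest bars belong to intervals of low accessibility.

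Size of change has to be read against accessibility, because weak intervals vary more. The 12 members of at least 50 CPM had log2 ratios of -0.048 to 0.14, and their 95% intervals ran from -0.14 to 0.26 at the widest. The 22 tested members under 5 CPM ranged from -0.52 to 0.80, with bounds from -1.01 to 1.47. At 3 of them, 2 at Fgfr2 and 1 at Dusp6, the 95% interval held both no change and a doubling. Of all 66, 3 lay above the band that holds the central 95% of tested intervals of similar accessibility: 1 each at Dusp6, Fgfr2 and Spry2. The closed Dusp6 interval lay below it.

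**Figure D2:**
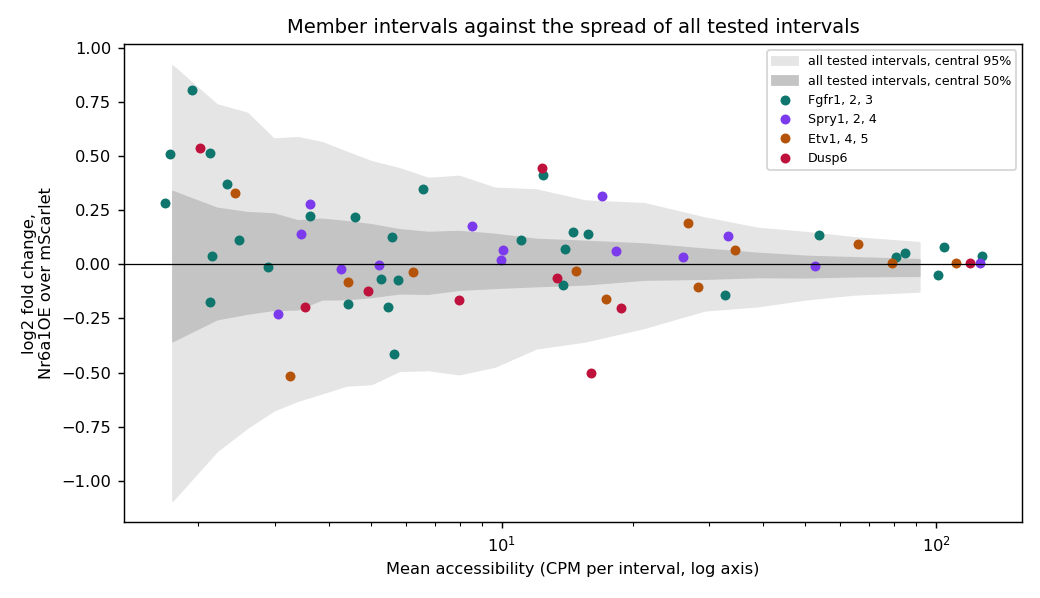
Log2 ratio (y axis) against mean accessibility in CPM (x axis, log scale) for the tested member intervals, coloured by role, over bands holding the central 50% and 95% of all tested intervals. Most members sit inside the outer band, with 3 above it and 1 below, all 4 between 10 and 20 CPM.

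Among the receptors, Fgfr1 (chr8:25518759-25575718) had 9 intervals, none called. Its stronger gene-end interval, at chr8:25518633-25520424 over the end with the lower coordinate, held 102, 101 and 101 CPM in mScarlet 1 to 3 and 109, 104 and 108 CPM in Nr6a1OE 1 to 3. Every Nr6a1OE library lay above every control, by a small amount: the log2 ratio was 0.079 with a standard error (SE) of 0.045 and an edgeR adjusted p of 0.475. The interval at the other end, chr8:25574464-25576183, had 12.5, 14.3 and 14.1 CPM in mScarlet and 14.5, 14.7 and 13.8 CPM in Nr6a1OE, with overlapping groups (log2 ratio 0.069, SE 0.12). The Fgfr1 interval with the smallest p, chr8:25514489-25515378, lay 3.8 kb outside the gene. It held 34.2 ± 1.58 CPM in mScarlet and 31.0 ± 1.52 in Nr6a1OE (SD, n = 3 each), a log2 ratio of -0.14 (edgeR adjusted p = 0.454).

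Fgfr2 (chr7:130162451-130266808) had the most intervals of the set, 21, at the 99.5th percentile of gene loci, and its intervals ranged from 1.78 to 36.5 CPM per kb. The interval at its start, chr7:130263850-130266785, held 104, 105 and 101 CPM in mScarlet and 96.7, 98.0 and 103 CPM in Nr6a1OE. The groups overlapped through Nr6a1OE 3, and the log2 ratio was -0.048 (SE 0.046, edgeR adjusted p = 0.727). The interval at the other end of the gene, chr7:130160859-130161663, was not tested, at 0.958, 1.02 and 1.25 CPM in mScarlet and 1.70, 2.54 and 1.14 CPM in Nr6a1OE.

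Inside Fgfr2, 51.0 kb from the nearer gene end, the interval chr7:130215119-130216475 was the receptor interval closest to the threshold. It held 10.1, 10.9 and 10.9 CPM in mScarlet and 13.4, 15.3 and 13.9 CPM in Nr6a1OE. All 3 Nr6a1OE libraries lay above all controls, with a log2 ratio of 0.41 (SE 0.13), but the edgeR adjusted p was 0.0599. It passed under 1 alternative, which tested only intervals averaging 50 fragments or more (adjusted p = 0.04995), and over all alternatives its adjusted p ran from 0.04995 to 0.962.

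The Fgfr2 interval with the highest accessibility per kb, chr7:130047599-130049072, lay 114.1 kb outside the gene and held 51.2 ± 4.18 CPM in mScarlet and 56.2 ± 5.59 in Nr6a1OE (SD, n = 3 each). Its log2 ratio was 0.14 (SE 0.061, edgeR adjusted p = 0.313), and it was 0.056 without Nr6a1OE 2 and 0.199 without Nr6a1OE 3. In all, 4 Fgfr2 intervals were higher at an unadjusted p under 0.05 and 1 was lower. The 20 tested intervals ran from -0.41 to 0.80 on the log2 scale, the highest value coming from an interval of 1.40 CPM in mScarlet and 2.47 in Nr6a1OE (chr7:130169814-130170677, chosen after its values were seen; edgeR adjusted p = 0.259). Fgfr2 also had the widest replicate spread of the 10 genes, with a median coefficient of variation within groups of 15.4%, against 4.72% for Fgfr3. The weakest Fgfr2 interval averaged 1.44 CPM over the libraries, against 11.1 CPM for the weakest at Fgfr3. Whether accessibility accounts for this difference in spread was not tested.

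Fgfr3 (chr5:33721724-33737068) had 3 intervals, all with log2 ratios above 0 (0.034 to 0.11) and none called. The interval over its start, chr5:33721134-33724072, was the most accessible of all members in CPM. It held 134, 123 and 120 CPM in mScarlet and 130, 124 and 133 CPM in Nr6a1OE, with overlapping groups and a log2 ratio of 0.039 (SE 0.041, edgeR adjusted p = 0.764). At its finish, chr5:33737571-33738529, the values were 10.7, 9.03 and 12.1 CPM in mScarlet and 9.94, 12.7 and 11.99 CPM in Nr6a1OE (log2 ratio 0.11, SE 0.13). No receptor interval passed in the edgeR comparison or with DESeq2, and the Fgfr2 interval at chr7:130215119-130216475 passed under the stricter count filter given above.

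The Sprouty genes encode membrane-associated inhibitors of receptor tyrosine kinase signalling. Spry1 (chr3:37639947-37644599) had 4 intervals, between -0.0088 and 0.14 on the log2 scale. The one over its start, chr3:37639682-37641371, held 56.7, 51.9 and 50.1 CPM in mScarlet and 54.0, 53.1 and 50.6 CPM in Nr6a1OE. The groups overlapped, and the log2 ratio of -0.0088 (SE 0.062, edgeR adjusted p = 0.976) changed sign under other settings. The Spry1 interval with the smallest p, chr3:37666348-37667811, 22.5 kb from the gene, had a log2 ratio of 0.062 (SE 0.10).

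Spry2 (chr14:105891947-105896819) had 9 intervals, the farthest 261.0 kb from the gene. Over its start lay the longest member interval, chr14:105895020-105899208, with 123, 128 and 127 CPM in mScarlet and 125, 126 and 128 CPM in Nr6a1OE. The groups overlapped, with a log2 ratio of 0.0058 (SE 0.041, edgeR adjusted p = 0.977). On the start side, 23.9 kb away, the interval chr14:105920267-105921264 held 14.5, 15.4 and 15.4 CPM in mScarlet and 19.0, 20.2 and 17.3 CPM in Nr6a1OE. Every Nr6a1OE library was above every control there, but the log2 ratio of 0.31 (SE 0.11) did not pass (edgeR adjusted p = 0.118, and 0.0989 to 1.00 over the alternatives).

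The table used here holds 1 interval for Spry4 (chr18:38586247-38601347), at chr18:38572838-38574736, 12.5 kb outside the gene. It had 10.8, 10.3 and 8.37 CPM in mScarlet and 10.7, 9.75 and 10.3 CPM in Nr6a1OE. The groups overlapped, and the 95% interval of the log2 ratio of 0.067 ran from -0.21 to 0.34.

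**Figure D3:**
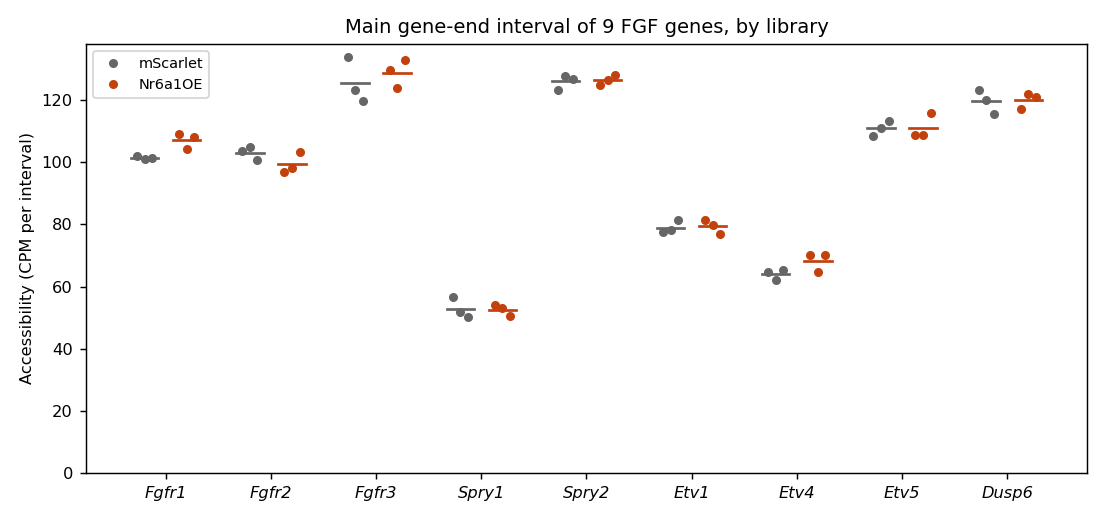
Accessibility in CPM per interval (y axis, from 0) at the most accessible gene-end interval of 9 genes; points are the 3 libraries of each group and bars their means. At Fgfr1 the Nr6a1OE points lie above the mScarlet points, at 104 to 109 against 101 to 102 CPM, and at the other 8 genes the groups overlap.

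The ETS factors Etv1, Etv4 and Etv5 carry the transcriptional response to FGF. At the start of Etv1 (chr12:38780082-38870483), the interval chr12:38778261-38780764 held 77.5, 78.1 and 81.3 CPM in mScarlet and 81.4, 79.8 and 76.8 CPM in Nr6a1OE. Its groups overlapped, with a log2 ratio of 0.0039 (SE 0.051) and 95% bounds of -0.096 and 0.10. The Etv1 interval with the smallest p, 224.2 kb from the gene, was weak (2.15 ± 0.709 CPM in mScarlet, 2.71 ± 0.877 in Nr6a1OE, SD, n = 3 each) and had a log2 ratio of 0.33 with an SE of 0.29.

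Etv4 (chr11:101769747-101785310) had 4 intervals. The one over its higher-coordinate end, chr11:101784291-101785927, held 64.6, 62.1 and 65.4 CPM in mScarlet and 70.0, 64.7 and 70.3 CPM in Nr6a1OE. The lowest Nr6a1OE library lay inside the control range, and the log2 ratio was 0.093 (SE 0.055, edgeR adjusted p = 0.500). Chromosome 11 as a whole had a median log2 ratio of 0.058, and with chromosome medians removed the value at this Etv4 interval was 0.041.

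Outside Etv4 the groups separated at 2 intervals, in opposite directions. The interval chr11:101813217-101816321, 29.5 kb away, held 24.2, 24.9 and 26.1 CPM in mScarlet and 29.7, 27.3 and 29.0 CPM in Nr6a1OE (log2 ratio 0.19, SE 0.086, edgeR adjusted p = 0.309). With chromosome medians removed its log2 ratio was 0.14 (edgeR adjusted p = 0.538). The weak interval chr11:101790670-101791408, 5.7 kb away and chosen after its values were seen, held 3.42, 4.37 and 3.75 CPM in mScarlet and 2.56, 1.98 and 3.41 CPM in Nr6a1OE (log2 ratio -0.52, SE 0.25, edgeR adjusted p = 0.363). Neither passed.

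Etv5 (chr16:22381313-22439570) had its main interval at the start, chr16:22438449-22440580. It held 108, 111 and 113 CPM in mScarlet and 109, 109 and 116 CPM in Nr6a1OE, with overlapping groups and a log2 ratio of 0.0042 (SE 0.044, edgeR adjusted p = 0.980). At the finish, chr16:22379881-22380609, the values were 14.4, 20.0 and 20.5 CPM in mScarlet and 19.0, 14.7 and 15.5 CPM in Nr6a1OE. The groups overlapped there too (log2 ratio -0.16, SE 0.11, edgeR adjusted p = 0.569), and the value was -0.058 without mScarlet 3 and -0.30 without mScarlet 1.

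Dusp6 (chr10:99263231-99267489, plus strand) had 9 intervals. The interval over its start, chr10:99261247-99264202, held 123, 120 and 115 CPM in mScarlet and 117, 122 and 121 CPM in Nr6a1OE. The groups overlapped, and the log2 ratio was 0.0071 with 95% bounds of -0.076 and 0.090 (edgeR adjusted p = 0.970). A short interval of 253 bp inside the gene, chr10:99265409-99265661, had the highest accessibility per kb of all members, 74.2 CPM per kb, at the 99.4th percentile of all intervals. It held 20.0 ± 1.52 CPM in mScarlet and 17.5 ± 1.57 in Nr6a1OE (SD, n = 3 each), a log2 ratio of -0.20 (SE 0.10, edgeR adjusted p = 0.392).

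The opened Dusp6 interval, chr10:99285511-99287072, lay 18.8 kb beyond the end of the gene. It held 11.2, 10.2 and 9.87 CPM in mScarlet and 14.2, 16.0 and 12.6 CPM in Nr6a1OE. All 3 Nr6a1OE libraries were above all 3 controls, the highest being Nr6a1OE 2, and mean accessibility was 1.37 times that of mScarlet. The log2 ratio was 0.45 (SE 0.13, edgeR adjusted p = 0.0316). The call held without Nr6a1OE 3 and was lost without any 1 of the other 5 libraries (adjusted p 0.0570 to 0.243), with DESeq2 (0.816) and with an assumed 10% variation between cultures (0.458). The log2 ratio stayed between 0.36 and 0.53 throughout.

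The closed interval, chr10:99460818-99461922, lay 193.9 kb beyond the gene on the same side. It held 17.1, 18.5 and 20.9 CPM in mScarlet and 10.8, 14.3 and 14.8 CPM in Nr6a1OE. All Nr6a1OE libraries were below all controls, lowest in Nr6a1OE 1, and mean accessibility was 0.705 times that of mScarlet. The log2 ratio was -0.50 (SE 0.11, edgeR adjusted p = 0.00144). The call was lost without mScarlet 3 (-0.41, adjusted p = 0.0796) or without Nr6a1OE 1 (-0.38, adjusted p = 0.110), with DESeq2 (0.321) and with an assumed 10% variation (0.208).

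Both called intervals are tied to Dusp6 by distance alone. From the opened one, the next protein-coding gene, Poc1b, ended 88.2 kb away. From the closed one, Poc1b lay 263.3 kb and Csl 296.3 kb away, so a limit of 100 kb left the closed interval out. Between them lay 4 tested intervals, at 0.54, -0.12, -0.20 and -0.16 on the log2 scale, none called, and the first interval on the far side, nearest to Csl, was at 0.21 (edgeR adjusted p = 0.721). Whether these sequences act on Dusp6 was not tested.

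**Figure D4:**
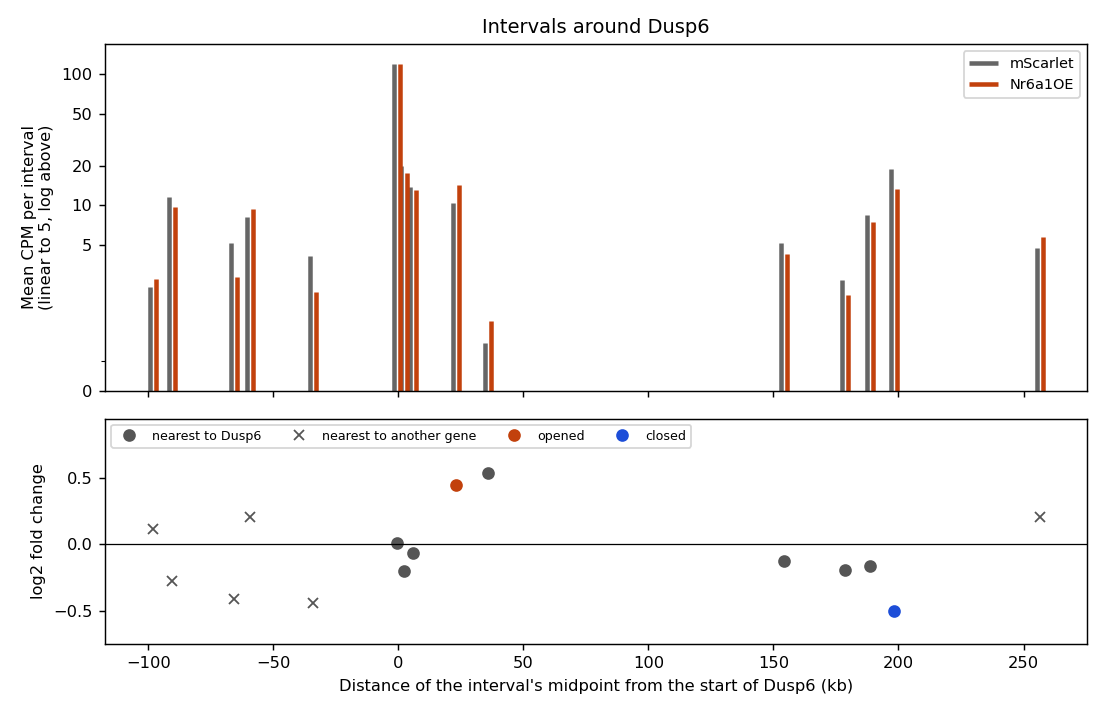
Mean accessibility in CPM by group (upper panel, axis linear to 5 and log above) and log2 ratio (lower panel) against distance from the Dusp6 start in kb. The start intervals of both groups reach 120 CPM, and the opened interval at 23.1 kb and the closed one at 198.1 kb lie on the same side of the gene.

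**Figure D5:**
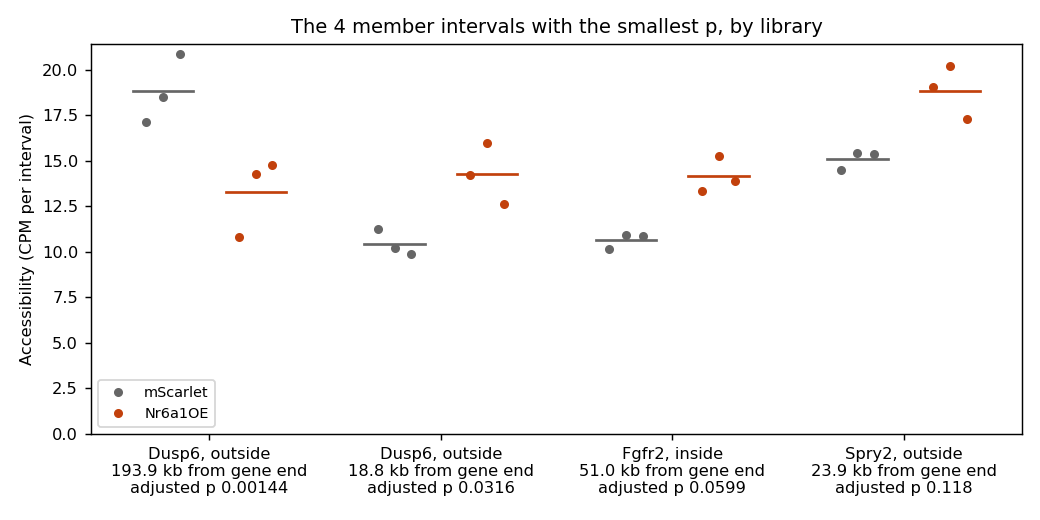
Accessibility in CPM per interval (y axis, from 0) by library for the 4 member intervals with the smallest p, with group means as lines. In each the groups do not overlap, but the 2 at Dusp6 alone passed the adjusted threshold (0.00144 and 0.0316, against 0.0599 at Fgfr2 and 0.118 at Spry2).

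Seen together, the main gene-end intervals of the 9 genes that have one ranked at or above the 83.4th percentile of all intervals per kb. Their log2 ratios were -0.048 to 0.093, and no 95% bound went beyond -0.14 or 0.20. Counts were also summed over all intervals of each gene and fitted over 16492 gene loci. None of the 10 loci passed with DESeq2, which gave no adjusted p for 4 of them. None passed with edgeR, which called 0.873% of all loci higher and 1.06% lower. There were 0 of 10 with an unadjusted p under 0.05, against 6.38% of all loci higher and 6.58% lower. The log2 ratios ran from -0.037 at Dusp6, where the opposed calls enter 1 sum, to 0.070 at Spry4. The lowest edgeR adjusted p, 0.395, was at Spry2, whose summed values of 203, 213 and 212 CPM in mScarlet and 217, 218 and 220 CPM in Nr6a1OE did not overlap (log2 ratio 0.061, SE 0.031).

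A list of 67 other FGF pathway genes had 251 intervals at 63 of them (none at Fgf21, Klb, Hras and Spry3), of which 248 were tested. Of these, 2 opened (background 0.469%) and 2 closed (1.26%), too few to read as more or fewer than in the whole table. Beside Fgf15, a ligand gene, the interval chr7:144894635-144897406 rose from 62.9 ± 0.938 to 72.2 ± 3.61 CPM (SD, n = 3 each; log2 ratio 0.20, edgeR adjusted p = 0.0285). The other opened interval was nearest to Ets1, which encodes an ETS factor, at 77.8 kb from the gene's end (0.41, edgeR adjusted p = 0.0359). An interval inside Il17rd, which encodes an inhibitor of FGF signalling, closed from 2.73 ± 0.563 to 1.14 ± 0.375 CPM (SD, n = 3 each; -1.24, edgeR adjusted p = 0.0277). So did one inside Map2k1, the gene of the kinase MEK1, although the nearest gene end was that of Uchl4 (-0.85, edgeR adjusted p = 0.0115). DESeq2 called none of these 4. Of the 6 edgeR fits that left out 1 library, 1 kept the Fgf15 call, 1 Ets1, 2 Il17rd and 3 Map2k1.

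The Fgf genes, listed as ligands, had 65 tested intervals. Of these, 12 were higher and 1 was lower by unadjusted p (under 0.05), where 5.73% and 6.87% of all intervals were. The groups did not overlap at 11 Fgf intervals higher in Nr6a1OE and 5 lower, against 7.89% and 8.73% of all intervals. At other receptors and co-receptors, 1 of 27 was higher and 2 lower by unadjusted p. Adaptors and kinases had 5 and 1 of 52, other inhibitors 3 and 4 of 49, and other ERK-responsive factors 1 and 2 of 55. The median log2 ratio of the Fgf intervals was 0.061, against 0.0038 over all intervals. It was -0.019 for other receptors and co-receptors, 0.013 for adaptors and kinases, 0.050 for other inhibitors and -0.014 for other ERK-responsive factors. The 12 higher Fgf intervals lay at 10 genes, 3 of them at Fgf12. Fgf13 and Fgf14 were also among the 10 genes. Like Fgf12 they encode intracellular proteins, so these counts are not for receptor ligands alone. After Fgf15 and Fgf12 (0.63, edgeR adjusted p = 0.0549), the smallest adjusted p belonged to Fgf8 (0.33, 0.0644), Fgf2 (0.34, 0.0839) and Fgf18 (0.30, 0.0967), none past the threshold. Without 1 library the count of higher intervals at the Fgf genes was 8 to 12, and with DESeq2 it was 5. The list was given by its counts alone and was not tested.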

How the data were processed

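The authors deposited 1 table of raw fragment counts per consensus interval for the 6 libraries. Per the file headers, read pairs were counted with featureCounts 2.0.1, a fragment counting in each interval that covered at least 0.2 of it, so neighbouring intervals can share fragments. The submitters' processing notes name mm10. The sources used here do not give the aligner, peak caller, duplicate handling or any Tn5 shift.

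The 10 genes and the lists were chosen with earlier results of these data known. Genes came from a RefSeq table (GRCm38.p6, 21896 protein-coding genes) without exons, so introns and untranslated regions were not told apart. From the deposited counts, edgeR 4.0.16 (R 4.3.3; filterByExpr, TMM scaling, glmQLFit and glmQLFTest, no covariate) compared Nr6a1OE with mScarlet over all intervals. filterByExpr removed 586 of 52223. Benjamini-Hochberg adjustment ran over all tested intervals, with a threshold of 0.05. Log2 ratios (log2 fold changes) are Nr6a1OE over mScarlet, their SE derived from the F statistic, and 95% intervals from it. CPM are counts scaled to the library size times its TMM factor. The script was tested on simulated data.

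Intervals named were those past the threshold, those within 1 kb of a gene end, and for each gene the one with the highest CPM per kb and the one with the smallest p. Alternatives were DESeq2 1.42.0, other scalings and filters, other membership limits, leaving out each library, a replicate block and an assumed 10% variation. Those for the other pathway genes were chosen after seeing the data.

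Nothing in the labels says that the libraries of a group were separate cultures. The p-values therefore rest on spread between these libraries alone, which edgeR pools over intervals, and that spread may be technical. The common variation that edgeR found beyond counting noise was 1.47%. At the opened Dusp6 interval the SE was 0.13 with edgeR and 0.18 with DESeq2. At the closed one it was 0.11 with edgeR and 0.16 with DESeq2. Nr6a1OE 1 and 3 agreed within sampling noise at intervals averaging 100 fragments or more (chi-square per degree of freedom 0.999, p = 0.549; other pairs within a group 1.02 to 1.17). At intervals averaging 10 fragments or more they differed by more than that noise (1.06 per degree of freedom) and were kept as 2 samples. Summing them to 1 gave the same counts of member calls, 1 opened and 1 closed.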

Additional observations from a re-analysis of the deposited data

How the results depend on the processing

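The 2 Dusp6 calls rest on few libraries. Member intervals opened numbered 0 with DESeq2, with an assumed 10% variation between cultures and with membership limited to the gene body or 1 kb, 2 with a mean of at least 50 fragments, and 0 to 1 without 1 library. Those closed numbered 0 with DESeq2, the assumed 10% variation, the 100 kb limit and the gene body limit, and 0 to 1 without 1 library. Over all intervals, DESeq2 called 3 opened and 97 closed, the assumed 10% variation left 16 and 175, a mean of at least 50 fragments left 430 closed, and leaving out 1 library gave 98 to 190 opened and 395 to 544 closed. For the other pathway genes, opened intervals numbered 0 with DESeq2 and the assumed 10% variation and 0 to 2 without 1 library. Closed ones numbered 0 with DESeq2, the assumed 10% variation and a mean of at least 50 fragments, a filter that removes both, and 0 to 2 without 1 library.

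No called interval changed sign. Signs changed for uncalled log2 ratios near 0: the Spry1 start was 0.0059 with chromosome medians removed, the Spry1 locus -0.0060 within the gene body limit, and at 100 kb the Etv1 locus -0.0019 and the Dusp6 locus 0.0196. Without 1 library, the start intervals ran from -0.0474 to 0.0448 at Spry1, -0.0083 to 0.0160 at Spry2, -0.0139 to 0.0298 at Etv1, -0.0275 to 0.0235 at Etv5 and -0.0173 to 0.0311 at Dusp6, and the Spry4 interval from -0.0436 to 0.144. The loci ran from -0.0240 to 0.0605 at Spry1, -0.0429 to 0.144 at Spry4, -0.0222 to 0.0401 at Etv1 and -0.0356 to 0.0531 at Etv5. The median over members was 0.022 to 0.080 without 1 library. The member loci stayed uncalled in each setting. DESeq2 gave no adjusted p for 4 of them.

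Same-numbered libraries showed no shared deviation from their group means (correlations 0.0044, -0.0022 and -0.0063). Spread within groups was close to counting noise, so these correlations cannot tell whether the replicate numbers pair the libraries. The widest within-group pair, mScarlet 2 and 3, had a chi-square per degree of freedom of 1.17 at intervals averaging 100 fragments or more. Against Nr6a1OE 1, 2 and 3, mScarlet 2 stood at 1.21, 1.24 and 1.24. With the replicate block, 224 intervals opened and 617 closed, and the same counts of member calls, 1 opened and 1 closed, were found. Depth limits the weakest members: at 3 of those under 5 CPM the 95% interval holds both 0 and a doubling.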

Other observations

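RefSeq gives Etv1 a second start window (chr12:38783461-38783710) with 1 CpG and 0 bases in an interval, against 9 CpG and 250 bases for its first. Among the 10 member windows, it and the Fgfr2 window, with 2 CpG, were those with 0 bases in an interval, and the other 8 held 9 to 27 CpG. On the other side of the Dusp6 start, the 5 intervals nearest to Poc1b within about 100 kb ran from -0.44 to 0.21 on the log2 scale, none called (lowest edgeR adjusted p 0.361). An interval nearest to Etv1 but 557.2 kb from it, beyond the 300 kb limit, was at -0.0047.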
